A study of Mus musculus with 4 samples.

Results

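The heterotrimeric G protein subunits and the regulators of G protein signalling (RGS proteins) were described in 4 infarcted mouse hearts. The members were the genes whose platform-annotation symbol follows the pattern of G protein alpha, beta or numbered gamma subunits or numbered RGS proteins. There were 51 such genes among the 19505 named genes on the array, 16 of alpha, 4 of beta and 10 of gamma subunits and 21 RGS genes, and each was read by 1 probe. Gnb2 is not analysed here. The gamma subunit genes Gngt1 and Gngt2 have symbols outside the pattern and are counted with a list of partner genes. The TTg-MI group held 2 hearts of the genotype Tcf21iCre/Tomato/MGTH2A and the Ctrl-MI group 2 hearts of the genotype Tcf21iCre/Tomato. A Tomato reporter and Tcf21iCre, in which Tcf21 (active in fibroblasts of the heart) drives Cre, were therefore shared by both groups. MGTH2A, carried by TTg-MI hearts only, is a construct that workers in this field know to encode Mef2c, Gata4, Tbx5 and Hand2, factors of heart development. All 4 hearts came from male mice whose left coronary artery was tied off at 8 weeks of age, and were taken 3 months later. Mice whose ejection fraction lay above 45% at 2 days after the operation had been left out, per the labels. RNA came from whole hearts per the labels, so each value averages over muscle, fibroblasts, vessels and blood cells.

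A heterotrimeric G protein couples a receptor at the cell surface to enzymes and channels inside the cell. The activated receptor loads the alpha subunit with GTP, after which alpha and the joined beta and gamma subunits each act on their targets, and RGS proteins speed the hydrolysis of that GTP and so end the signal. In the heart, Gs mediates the adrenergic drive to rate and force, Gi and Go mediate the vagal brake through muscarinic receptors, and Gq mediates the responses of muscle and vessels to angiotensin, endothelin and alpha-adrenergic agonists.

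Array medians lay between 6.55 and 6.62 log2 units and lower quartiles between 5.41 and 5.48. A value under its array's lower quartile was not shown to be above background. Across the 51 members, which are not independent replicates, Pearson correlations between arrays ran from 0.976 for TTg-MI replicate 2 with Ctrl-MI replicate 1 to 0.990 for the Ctrl-MI pair. Ctrl-MI replicate 1 held the highest of the 4 values for 20 members, more than any other array, and Ctrl-MI replicate 2 held the lowest for 17. Of the 51 members, 40 lay above the lower quartile on every array, 6 on some arrays and 5 (Gnat3, Rgs13, Rgs20, Rgs21 and Rgs22) on none. All 5 measured fibroblast and all 5 measured macrophage markers were lower on both TTg-MI arrays than on both Ctrl-MI arrays. Over all probes, 18.7% were lower and 19.4% higher without overlap. Of 6 atrial muscle markers, Myl7, Myl4 and Sln were far lower on Ctrl-MI replicate 2 than on the other 3 arrays. The other atrial markers were not. Nppa had 19.90 there, against 18.85 on TTg-MI replicate 2, and Dkk3 had 7.73, against 7.94. Bmp10 was low on both Ctrl-MI arrays, at 5.31 and 5.39.

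Most G protein and RGS genes differed little between TTg-MI and Ctrl-MI hearts. The largest difference among the 51 was that of Gnao1, which encodes the alpha subunit of Go. In limma with Benjamini-Hochberg adjustment over all 22206 probes, 0 of the 51 members passed the threshold of 0.05, against 1 probe (0.00450%) on the whole array. The smallest adjusted p of a member was 0.190, for Gnao1, and 4 members (Gnao1, Rgs4, Gnb5 and Rgs2) had an unadjusted limma p under 0.05. That is 7.84% of members, against 8.25% of all probes. Of the 4, only Gnao1 kept such a p as each array was left out in turn, and Rgs4 and Gnb5 lost it under an intensity trend with a robust prior. The median log2 difference of the members was -0.076, against 0.011 for all probes, and the median size of the difference was 0.18 against 0.15. Without overlap between the groups, 8 members were higher in TTg-MI (15.7%, against 19.4% of all probes) and 12 lower (23.5%, against 18.7%). Rgs2 and Rgs18 were at least 1.5-fold higher in TTg-MI (3.92% of members, against 2.85% of all probes), and Gnao1 and Gng8 at least 1.5-fold lower (3.92%, against 4.56%). As a set, the members thus stood near the background of the array on each of these counts.

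**Figure D1:**
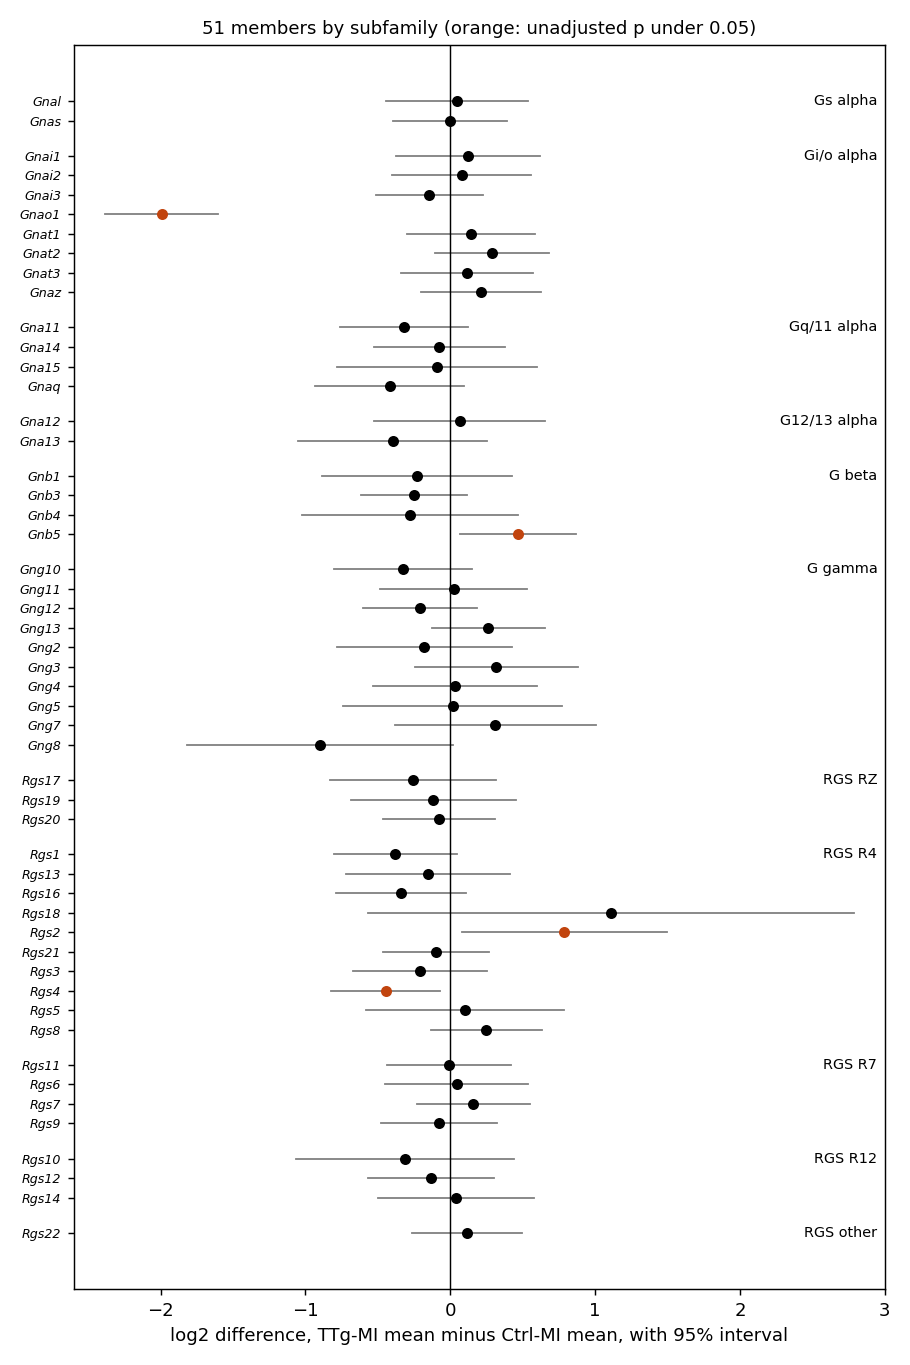
Each row is a member gene, grouped by subfamily, and each point is its log2 difference (TTg-MI mean minus Ctrl-MI mean, n = 2 arrays each) with the 95% interval from limma as a bar. Gnao1 stands alone at -1.99, while the intervals of Rgs4, Gnb5 and Rgs2 are the only others that leave out 0.

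Gnao1, the alpha subunit of Go, is abundant in neurons and is also present in heart muscle, where mice lacking it lose the muscarinic inhibition of L-type calcium channels. It had 9.44 and 9.29 log2 units on the TTg-MI arrays, against 11.30 and 11.42 on the Ctrl-MI arrays. The groups did not overlap, and the 2 arrays of each group lay within 0.15 and 0.12 units of each other. The means of 9.36 ± 0.10 in TTg-MI and 11.36 ± 0.08 in Ctrl-MI (SD, n = 2 each) differ by -1.99 (SE 0.16, 95% interval -2.38 to -1.60), a 3.98-fold lower level. Only 2 of the 22206 probes had a smaller limma p than the 2.57e-05 of Gnao1. With Benjamini-Hochberg adjustment the limma p was 0.190, and it was 0.0309 without Ctrl-MI replicate 2, the only fit in which a member passed. That fit assumes that the lone Ctrl-MI array varies like the TTg-MI arrays. In bulk samples fewer cells of a type and less RNA per cell cannot be told apart.

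The lower Gnao1 level stood beside lower levels of fibroblast and macrophage markers. The summed signal of the 5 fibroblast markers was 18.49 and 17.90 log2 units in TTg-MI, against 19.27 and 18.61 in Ctrl-MI. Nearly all of that sum came from Dcn. The sum of the 5 macrophage markers was 10.95 and 10.57 in TTg-MI, against 12.61 and 11.40 in Ctrl-MI. Within the Ctrl-MI pair both sums were lower on replicate 2, and Gnao1 was 0.12 units higher there. A single pair of arrays cannot show how Gnao1 varies with these markers. Of 4 measured Schwann cell and neuron markers, 0 separated the groups, against 38.1% of all probes. Their sum was 8.09 and 8.00 in TTg-MI and 8.15 and 7.94 in Ctrl-MI. S100b lay under the lower quartile on every array, Cdh19 and Sox10 each on 1 array, and only Tubb3 on none. The part of these cell types in the Gnao1 result was not tested.

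**Figure D2:**
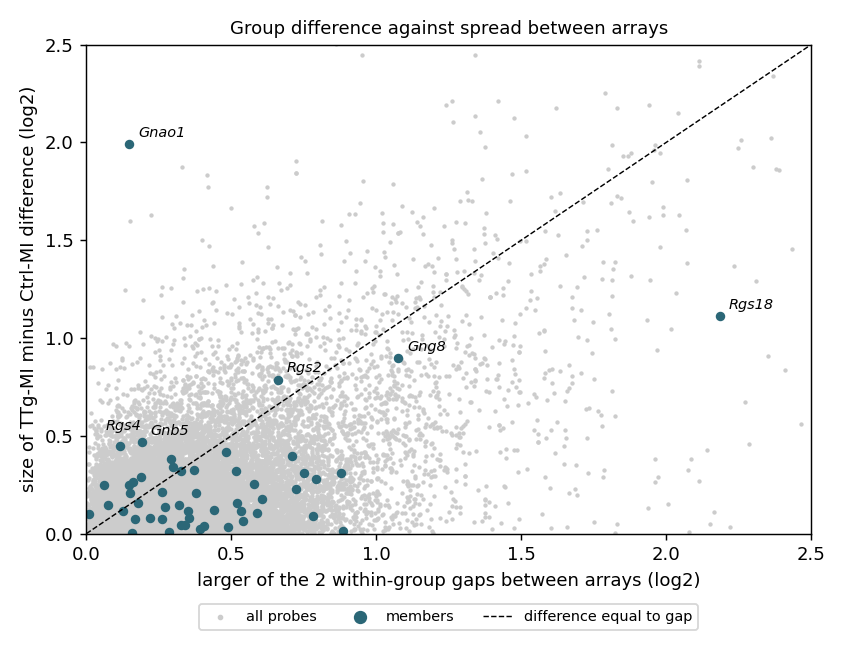
For each probe the size of the log2 difference between TTg-MI and Ctrl-MI means is plotted against the larger of the gaps between the 2 arrays of a group, with the 51 members in colour. Gnao1 lies far above the dashed line of equality at 1.99 with a gap of 0.15, Rgs2, Gnb5 and Rgs4 lie nearer to it, and Rgs18 and Gng8 lie below it. A further 62 probes fall outside the plotted range of 2.5 units.

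For 13 of the 51 members (25.5%, against 25.0% of all probes) the group difference was larger than the gap between the arrays of either group, as the plot of difference against spread shows.

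The promoters of the 4 members with an unadjusted p under 0.05 are shown because they belong to the members with the smallest p. Of the 51 members, 38 matched an entry in the promoter table of RefSeq (build GRCm38.p6), which holds 250 bases before to 50 bases after each annotated start. Capitals mark letters matched to short patterns for the factor families in MGTH2A, searched on both strands. These were GATA for GATA factors, CANNTG for the E-box of Hand2 and other helix-loop-helix factors, and GGTGT as a T-box half-site. For MEF2 the pattern was TANNNNTA with any base at N. It is looser than the MEF2 core and also marks stretches that are not such a core. The sequences run 5′ to 3′ on the strand of the gene, at chr8:93810588-93810887 (plus strand) for Gnao1, chr9:75306038-75306337 (plus strand) for Gnb5, chr1:144004100-144004399 (minus strand) for Rgs2 and chr1:169747593-169747892 (minus strand) for Rgs4.
Gnao1: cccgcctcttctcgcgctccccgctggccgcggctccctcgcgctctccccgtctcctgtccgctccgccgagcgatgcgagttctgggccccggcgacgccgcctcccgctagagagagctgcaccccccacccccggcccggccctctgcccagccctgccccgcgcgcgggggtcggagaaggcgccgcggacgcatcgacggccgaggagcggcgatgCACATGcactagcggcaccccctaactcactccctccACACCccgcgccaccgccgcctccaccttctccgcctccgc
Gnb5: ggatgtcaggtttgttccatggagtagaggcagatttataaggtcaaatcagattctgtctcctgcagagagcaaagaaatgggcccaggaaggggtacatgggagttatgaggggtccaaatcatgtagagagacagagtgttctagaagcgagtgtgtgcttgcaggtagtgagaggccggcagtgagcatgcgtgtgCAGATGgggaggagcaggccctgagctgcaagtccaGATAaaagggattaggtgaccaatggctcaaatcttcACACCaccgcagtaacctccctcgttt
Rgs2: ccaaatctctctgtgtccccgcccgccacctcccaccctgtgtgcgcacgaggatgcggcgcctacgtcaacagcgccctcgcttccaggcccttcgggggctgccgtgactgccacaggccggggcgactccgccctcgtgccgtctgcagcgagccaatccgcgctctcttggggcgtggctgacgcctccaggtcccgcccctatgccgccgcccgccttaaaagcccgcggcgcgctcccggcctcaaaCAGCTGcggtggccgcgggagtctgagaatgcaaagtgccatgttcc
Rgs4: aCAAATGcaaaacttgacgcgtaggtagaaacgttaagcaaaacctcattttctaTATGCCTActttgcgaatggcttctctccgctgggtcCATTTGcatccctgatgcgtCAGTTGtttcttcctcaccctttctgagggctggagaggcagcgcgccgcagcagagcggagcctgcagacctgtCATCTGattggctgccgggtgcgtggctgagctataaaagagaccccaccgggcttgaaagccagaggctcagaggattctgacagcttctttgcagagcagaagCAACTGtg

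The Gnao1 window is rich in G and C (76.3%, with 42 CpG dinucleotides), holds 1 E-box and 1 T-box half-site, and has 0 GATA and 0 MEF2 matches. Gnb5 has a window of 51% G and C with 1 GATA core, 1 E-box and 1 T-box half-site. Rgs2 has 1 E-box and none of the other motifs. Rgs4 has 5 E-boxes and 1 match to the loose MEF2 pattern, TATGCCTA, which has G and C in its middle. No marked motif overlaps another in these windows. Such short motifs are common. Of all 32851 promoters, 57.9% hold GATA, 72.3% the E-box, 37.3% the loose MEF2 pattern and 41.6% the T-box half-site. Among the 51 windows of the members, which include several starts of some genes, these numbered 22, 36, 7 and 25. A match describes the letters in the window and not a bound site.

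The other alpha subunits of the Gi and Go class differed far less than Gnao1. Gnai2, the main inhibitor of adenylyl cyclase among the Gi subunits of heart muscle, had 13.33 and 13.10 log2 units in TTg-MI, against 13.31 and 12.96 in Ctrl-MI. Its difference was 0.079 (SE 0.19, 95% interval -0.40 to 0.56), and its sign turned without Ctrl-MI replicate 2 or TTg-MI replicate 1. Gnai3, a close relative, had 8.70 and 8.69 in TTg-MI, against 8.88 and 8.81 in Ctrl-MI, without overlap but with a difference of only -0.15 (SE 0.15). Gnai1 had 6.05 and 6.49 in TTg-MI and 6.11 and 6.20 in Ctrl-MI, with overlap. Gnaz, whose Gz protein is found in neurons and platelets, had 6.32 and 6.58 in TTg-MI, against 6.23 and 6.24 in Ctrl-MI. Of the sensory subunits, Gnat2 of cone photoreceptors had 6.28 and 6.31 in TTg-MI, against 6.10 and 5.91 in Ctrl-MI, while Gnat1 of rods ran from 5.42 to 5.78 over the 4 arrays and Gnat3 of taste cells from 4.67 to 5.02.

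No difference was detected for the Gs genes. Gnas, the stimulatory subunit that activates adenylyl cyclase, had 15.59 and 15.71 log2 units in TTg-MI, against 15.73 and 15.57 in Ctrl-MI. The groups overlapped, and the difference of -0.0022 (SE 0.16) had a 95% interval of -0.40 to 0.39. Gnal, which encodes the olfactory form, had 5.46 and 5.18 in TTg-MI and 5.11 and 5.44 in Ctrl-MI, under the lower quartile on 3 of the 4 arrays, with a difference of 0.046 (SE 0.20).

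All 4 genes of the Gq class had a lower mean in TTg-MI, as did 10591 of all 22206 probes. The median log2 difference of the 4 was -0.20, against 0.011 for all probes. Without overlap, 2 of the 4 were lower, against 18.7% of all probes. Gnaq, which activates phospholipase C beta, had 9.35 and 9.32 log2 units in TTg-MI, against 9.996 and 9.51 in Ctrl-MI. Gna11, which shares that role, had 11.07 and 11.03 in TTg-MI, against 11.21 and 11.53 in Ctrl-MI. Their differences were -0.42 (SE 0.21) and -0.32 (SE 0.18), with adjusted p of 0.665 and 0.711 in limma. For both genes the TTg-MI arrays agreed within 0.04 units, and the Ctrl-MI arrays lay 0.48 and 0.33 units apart, with a different replicate higher in each. Leaving out Ctrl-MI replicate 1 gave -0.18 for Gnaq and -0.48 for Gna11, and leaving out Ctrl-MI replicate 2 gave -0.66 for Gnaq and -0.15 for Gna11. Gna14 overlapped, at 6.19 and 5.94 in TTg-MI and 6.01 and 6.27 in Ctrl-MI. So did Gna15, a subunit of blood cells, at 5.83 and 5.78 in TTg-MI and 6.28 and 5.50 in Ctrl-MI.

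Of the G12 and G13 subunits, which form a class of their own, Gna13 had 9.53 and 10.24 log2 units in TTg-MI, against 10.34 and 10.22 in Ctrl-MI. TTg-MI replicate 1 alone was low, and the difference of -0.40 (SE 0.26) was -0.043 without it and -0.75 without TTg-MI replicate 2. Gna12 overlapped, with 14.32 and 14.62 in TTg-MI and 14.14 and 14.68 in Ctrl-MI.

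**Figure D3:**
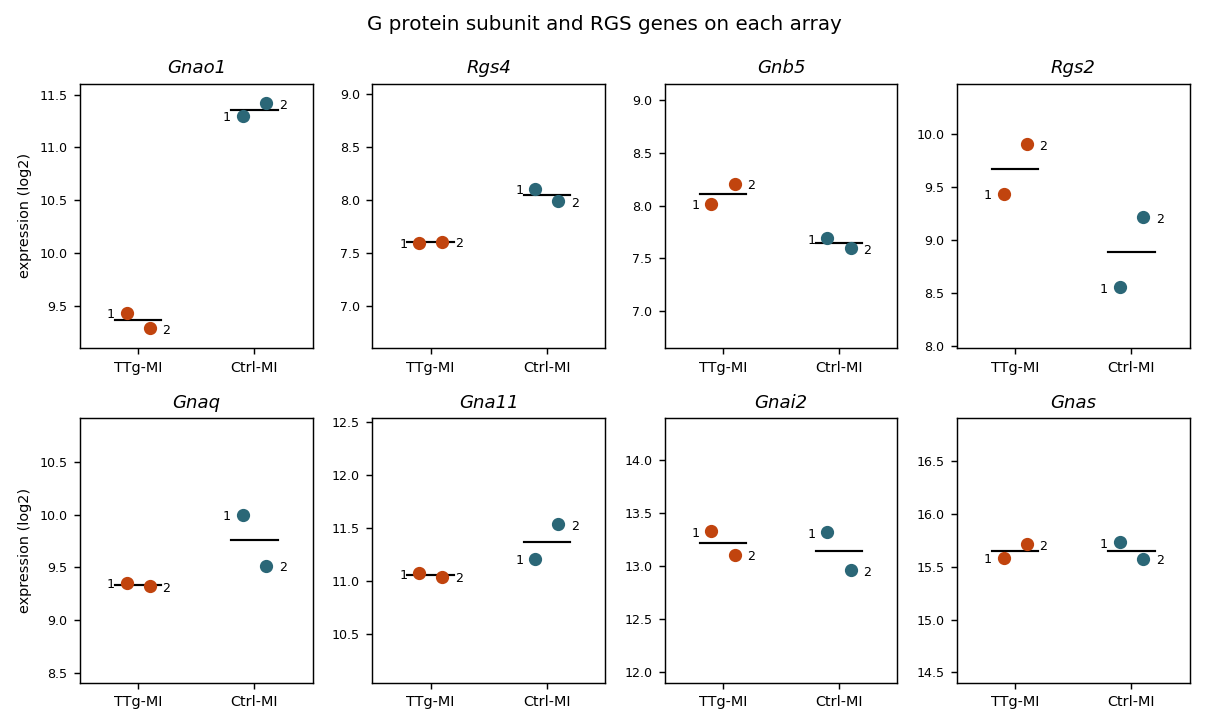
Each panel gives the log2 expression of a member on each array as a point labelled with its replicate number, and the group mean as a bar, with 2 TTg-MI arrays on the left and 2 Ctrl-MI arrays on the right. The vertical scales span different levels. Gnao1 is near 9.4 in TTg-MI and 11.4 in Ctrl-MI, whereas Gnai2 and Gnas overlap.

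Among the beta subunits, Gnb5 was higher in TTg-MI. Gnb5 is the divergent beta subunit that pairs with the R7 class of RGS proteins rather than with gamma subunits. It had 8.02 and 8.21 log2 units in TTg-MI, against 7.69 and 7.60 in Ctrl-MI, without overlap. The difference of 0.47 (SE 0.16, 95% interval 0.070 to 0.87) is 1.38-fold, with an unadjusted p of 0.0287 and an adjusted p of 0.572 in limma, and it lay between 0.37 and 0.56 as single arrays were left out. The other 3 measured beta genes had lower means in TTg-MI. Gnb1, a widespread partner of alpha subunits, had 13.82 and 13.85 in TTg-MI and 14.42 and 13.70 in Ctrl-MI, and its difference of -0.23 (SE 0.26) became 0.13 without Ctrl-MI replicate 1. Gnb3, best known from cone photoreceptors, had 8.62 and 8.68 in TTg-MI, against 8.90 and 8.91 in Ctrl-MI, a small gap without overlap. Gnb4 ranged more within the groups, with 6.90 and 6.11 in TTg-MI and 6.96 and 6.60 in Ctrl-MI.

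Gamma subunits anchor the beta subunit to the membrane through a lipid. Of the 10 gamma genes among the members, Gng8 had the smallest limma p. Gng8, known from olfactory and vomeronasal neurons, had 7.10 and 6.77 log2 units in TTg-MI, against 8.37 and 7.29 in Ctrl-MI. The groups did not overlap, but the Ctrl-MI arrays lay 1.08 units apart, more than the group difference of -0.90 (SE 0.37, adjusted p = 0.607 in limma). The group difference became -0.36 if Ctrl-MI replicate 1 was left out and -1.44 if Ctrl-MI replicate 2 was. Among the widely expressed gamma genes, Gng12 and Gng10 had lower means in TTg-MI, and Gng5 had no stable direction. Gng5 had 12.37 and 12.34 in TTg-MI, between the 11.90 and 12.78 of Ctrl-MI, a difference of 0.016 (SE 0.30) whose sign turned as single Ctrl-MI arrays were left out. Gng12 had 9.98 and 9.85 in TTg-MI, against 10.05 and 10.20 in Ctrl-MI, a difference of -0.21 (SE 0.16). Gng10 had 8.24 and 8.61 in TTg-MI, against 8.83 and 8.67 in Ctrl-MI. Neither Gng12 nor Gng10 overlapped between the groups, and both gaps were small.

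Of the remaining gamma genes, Gng13 of taste cells was higher on both TTg-MI arrays, with 5.94 and 5.78 log2 units, against 5.55 and 5.64 in Ctrl-MI. Gng2 had 7.70 and 7.49 in TTg-MI and 8.08 and 7.47 in Ctrl-MI. Gng11 had 6.93 and 6.54 in TTg-MI and 6.58 and 6.84 in Ctrl-MI. Gng2 and Gng11 overlapped between the groups, as did the neuronal and striatal forms that follow. Gng4, a neuronal form, had 7.01 and 6.71 in TTg-MI and 7.07 and 6.58 in Ctrl-MI. Gng3, also neuronal, had 5.99 and 5.47 in TTg-MI and 5.54 and 5.29 in Ctrl-MI, and Gng7 of the striatum 5.99 and 5.75 in TTg-MI and 5.94 and 5.19 in Ctrl-MI. Both lay near the lower quartiles, Gng3 and Gng7 each falling under it on 1 array.

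The R4 class holds the small RGS proteins that act on Gi and Gq. Rgs2 is an RGS protein with a preference for Gq that is known to limit hypertrophy and vascular tone in mice. It had 9.44 and 9.91 log2 units in TTg-MI, against 8.55 and 9.21 in Ctrl-MI. The groups did not overlap, and the gap between TTg-MI replicate 1 and Ctrl-MI replicate 2 was the narrowest. The means of 9.67 ± 0.33 in TTg-MI and 8.88 ± 0.47 in Ctrl-MI (SD, n = 2 each) differ by 0.79 (SE 0.28, 95% interval 0.081 to 1.49), a 1.73-fold higher level. The unadjusted p was 0.0347 and the adjusted p 0.588 in limma. The log2 difference became 0.46 if Ctrl-MI replicate 1 was left out and 1.12 if Ctrl-MI replicate 2 was.

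Rgs4, an RGS protein of the conduction system, neurons and smooth muscle, went the other way. It had 7.60 and 7.61 log2 units in TTg-MI, against 8.11 and 7.99 in Ctrl-MI, without overlap. The difference of -0.45 (SE 0.15, 95% interval -0.82 to -0.070) is 1.36-fold, with an unadjusted p of 0.0277 and an adjusted p of 0.572 in limma, and it lay between -0.50 and -0.39 as single arrays were left out. Rgs5, a marker of pericytes, overlapped with 14.19 and 13.69 in TTg-MI and 13.54 and 14.13 in Ctrl-MI, a difference of 0.10 (SE 0.27) whose sign turned as single arrays were left out. Of 6 pericyte markers 2 were higher and 1 lower without overlap in TTg-MI, against 19.4% and 18.7% of all probes. Their summed signal, mostly that of Abcc9, was 15.28 and 15.64 log2 units in TTg-MI, against 13.86 and 15.10 in Ctrl-MI. Yet 4 of the 6 had a lower mean in TTg-MI, and their median log2 difference was -0.17. Of 6 smooth muscle markers 1 (Acta2) was higher and 1 (Myh11) lower without overlap. Their sum, mostly that of Acta2, was 14.84 and 14.94 in TTg-MI, against 13.60 and 14.15 in Ctrl-MI. The median log2 difference of these 6 was -0.032. The part of these cells in the Rgs2 and Rgs4 levels was not tested.

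Rgs18, chosen for description after its values were seen, was high on 1 array only. It is an RGS protein of platelets and megakaryocytes, and it had 5.45 and 7.64 log2 units in TTg-MI, against 5.50 and 5.37 in Ctrl-MI. TTg-MI replicate 2 therefore stood 2.19 units above TTg-MI replicate 1, which lay under its array's lower quartile, as did Ctrl-MI replicate 2. The platelet chemokine gene Ppbp had 5.42 and 10.25 in TTg-MI, against 5.79 and 5.38 in Ctrl-MI. Pf4 had 7.54 and 8.95 in TTg-MI, against 8.02 and 8.18 in Ctrl-MI, and Itga2b 7.27 and 8.07 in TTg-MI, against 7.29 and 7.30 in Ctrl-MI. The same array was thus the highest for each of these genes. All 5 measured platelet markers were highest on TTg-MI replicate 2, their summed signal being 9.52 and 11.24 log2 units in TTg-MI, against 9.60 and 9.58 in Ctrl-MI. The part of platelets in the Rgs18 level was not tested.

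**Figure D4:**
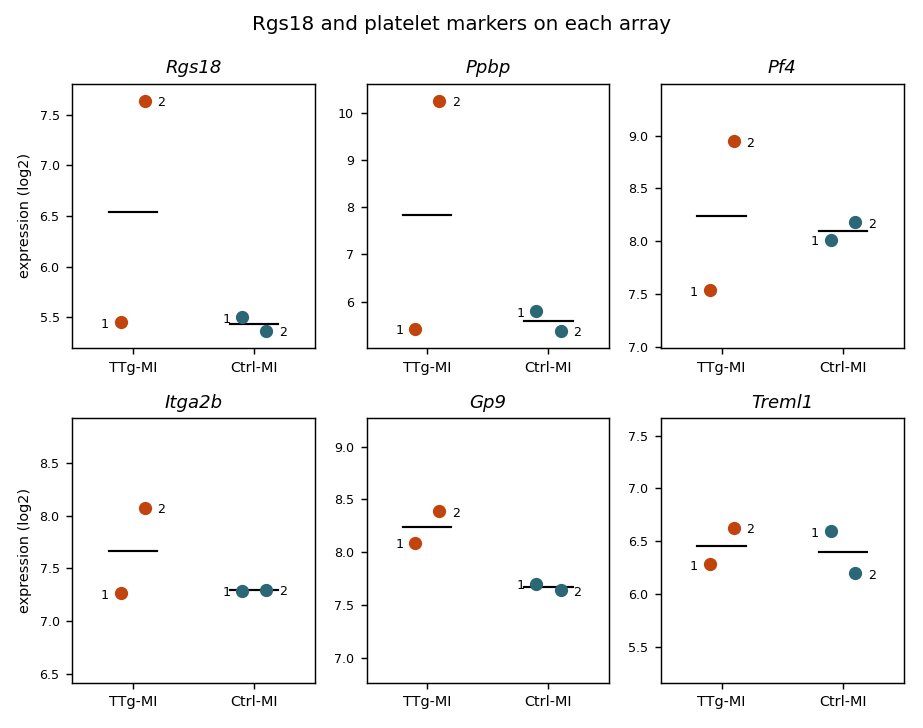
Each panel gives the log2 expression of Rgs18 or of a platelet marker on each array as a point labelled with its replicate number, with the group mean as a bar, TTg-MI on the left and Ctrl-MI on the right (2 arrays each). Rgs18 and Ppbp are high on TTg-MI replicate 2 alone, at 7.64 and 10.25, and the other markers are also highest there.

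Of the other R4 genes, Rgs1, a gene of lymphocytes and macrophages, had 4.96 and 5.25 log2 units in TTg-MI, against 5.49 and 5.48 in Ctrl-MI, which is at the lower quartile, so the size of its difference is not read. Rgs16 had 6.08 and 5.78 in TTg-MI, against 6.36 and 6.19 in Ctrl-MI, also without overlap. Rgs10, of the R12 class, which is high in microglia and macrophages, had 6.97 and 6.93 in TTg-MI and 7.70 and 6.82 in Ctrl-MI, a difference of -0.31 (SE 0.30) that was 0.13 without Ctrl-MI replicate 1. Of 5 measured lymphocyte markers, 4 were lower in TTg-MI without overlap, against 18.7% of all probes. Only 1 of the 5, Cd79a, lay above the lower quartile on every array. The summed signal of the 5 was 7.87 and 7.77 log2 units in TTg-MI, against 8.06 and 8.18 in Ctrl-MI. Whether these cells bear on the RGS levels was not tested.

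Rgs3, also of the R4 class, had 10.70 and 10.32 log2 units in TTg-MI and 10.76 and 10.69 in Ctrl-MI, with overlap. Rgs8, known from the brain, had 6.67 and 6.82 in TTg-MI, against 6.52 and 6.47 in Ctrl-MI, without overlap. Rgs13 of B cells and Rgs21 of taste cells lay under the lower quartile on all 4 arrays, between 4.54 and 5.08 and between 4.89 and 4.99.

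The R7 class, the partners of Gnb5, had smaller differences than Gnb5 itself. Rgs6, which limits parasympathetic slowing of the mouse heart rate, had 7.86 and 7.52 log2 units in TTg-MI and 7.79 and 7.50 in Ctrl-MI, a difference of 0.045 (SE 0.20) that turned negative without Ctrl-MI replicate 2 or TTg-MI replicate 1. Rgs7 had 5.92 and 5.95 in TTg-MI, against 5.69 and 5.87 in Ctrl-MI, a difference of 0.16 (SE 0.16). Rgs9, of the retina and striatum, and Rgs11, of the retina, overlapped and spanned 5.61 to 5.83 and 5.70 to 5.99. The values of Rgs7, Rgs9 and Rgs11 lay not far above the lower quartiles.

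Among the R12 and RZ classes no gene separated the groups. Rgs14 had 7.91 and 7.57 log2 units in TTg-MI and 7.91 and 7.50 in Ctrl-MI, and Rgs12 had 6.43 and 6.27 in TTg-MI and 6.35 and 6.62 in Ctrl-MI. Rgs17 had 5.82 and 5.92 in TTg-MI and 6.41 and 5.83 in Ctrl-MI, and its difference of -0.26 (SE 0.23) became 0.033 without Ctrl-MI replicate 1. Rgs19, also known as GAIP, had 7.31 and 7.07 in TTg-MI and 7.57 and 7.04 in Ctrl-MI. Rgs20 lay under the lower quartile throughout, at 4.92 to 5.09. So did Rgs22, of neither class, at 4.91 to 5.11, with a difference of 0.12 (SE 0.15).

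Genes that work with the members were taken as 7 lists, of which 56 genes were measured. Of these, 0 passed limma with Benjamini-Hochberg adjustment. An unadjusted p under 0.05 was found for 7 higher genes (12.5%, against 3.18% of all probes) and 7 lower genes (12.5%, against 5.07%). The lists were chosen with earlier results of these data known, so these shares do not measure enrichment. The G protein gated potassium channel of the atria and sinus node, which vagal Gi and Go signalling opens, is built from the products of Kcnj3 and Kcnj5, and both genes were higher in TTg-MI. Kcnj3 had 11.84 and 11.67 log2 units in TTg-MI, against 9.55 and 10.67 in Ctrl-MI, a difference of 1.64 (SE 0.37, adjusted p = 0.546 in limma). Kcnj5 had 10.61 and 10.96 in TTg-MI, against 9.87 and 10.01 in Ctrl-MI, a difference of 0.84 (SE 0.18, adjusted p = 0.546 in limma). Neither gene overlapped between the groups. For Kcnj3, leaving out Ctrl-MI replicate 2 gave 2.21 with an adjusted p of 0.0309 in limma, and leaving out Ctrl-MI replicate 1 gave 1.08. Kcnj6 and Kcnj9, neuronal channel genes, overlapped, with a difference of -0.11 (SE 0.16) for Kcnj6.

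Chrm2, the muscarinic receptor of the heart that couples to Gi and Go, was also higher, with 10.91 and 10.76 log2 units in TTg-MI, against 10.35 and 10.14 in Ctrl-MI (difference 0.59, SE 0.17, adjusted p = 0.546 in limma). The direction of Chrm2, Kcnj3 and Kcnj5 was thus opposite to that of Gnao1. These genes are richer in atrial than in ventricular muscle. The atrial marker Myl7 had 12.45 and 11.47 in TTg-MI, against 10.44 and 5.61 in Ctrl-MI, and of 6 atrial markers Myl7 and Bmp10 were higher without overlap. Bmp10, the 1 probe of the array past the adjusted threshold (adjusted p = 0.00489 in limma), had 12.38 and 11.82 in TTg-MI, against 5.31 and 5.39 in Ctrl-MI, under the lower quartile. The summed signal of the 6, which is mostly that of Nppa, was 20.07 and 18.97 in TTg-MI, against 20.04 and 19.90 in Ctrl-MI. Ctrl-MI replicate 2, the array with little Myl7, had the higher Kcnj3 and Kcnj5 values but the lower Chrm2 value of the Ctrl-MI pair. The part of atrial muscle in these differences was not tested.

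Of 7 measured receptors coupled to Gi and Go, 1 was higher (Chrm2) and 3 lower without overlap, against 19.4% and 18.7% of all probes. One of the lower genes, Adra2c, lay under the lower quartile on every array. S1pr1, the sphingosine phosphate receptor of endothelium, had 9.24 and 9.82 log2 units in TTg-MI, against 10.56 and 10.65 in Ctrl-MI (difference -1.07, SE 0.23, adjusted p = 0.546 in limma). Npy1r differed by -0.19 (SE 0.15). The endothelial markers did not move together: of 6, 2 were higher and 1 lower without overlap in TTg-MI, and their summed signal was 15.64 and 15.17 in TTg-MI and 15.15 and 15.19 in Ctrl-MI.

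**Figure D5:**
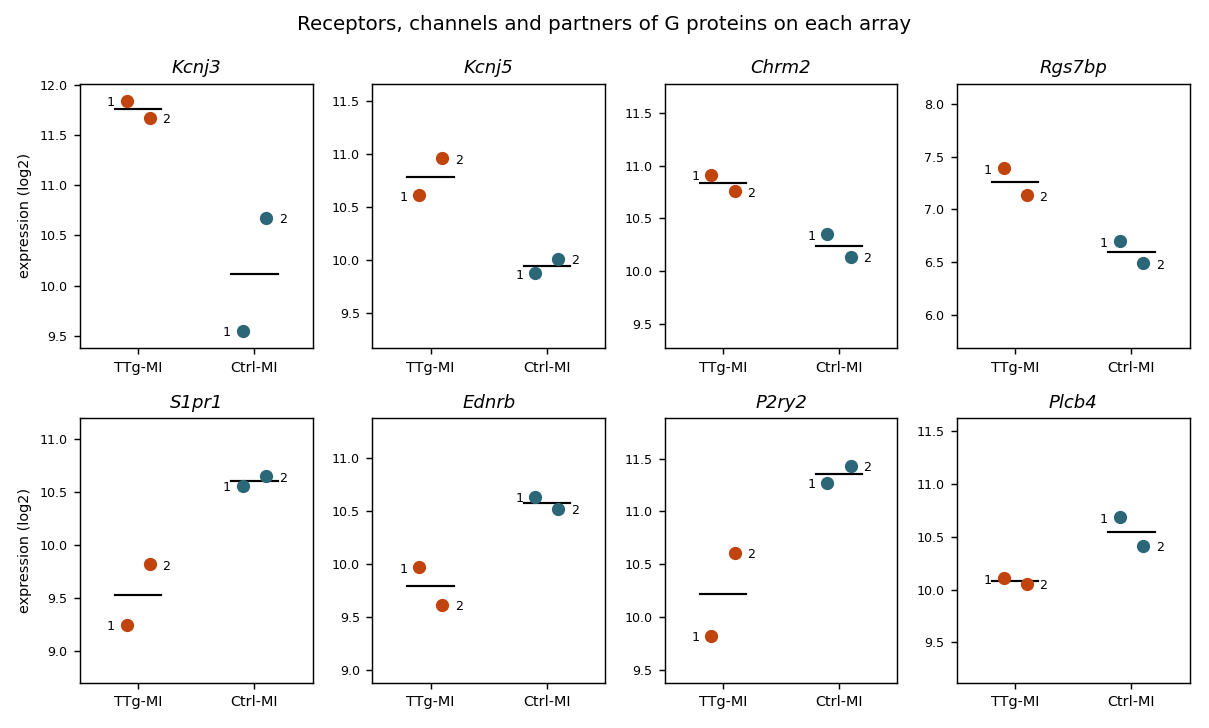
Each panel gives the log2 expression of a receptor, channel or partner gene on each array as a point labelled with its replicate number, with the group mean as a bar, TTg-MI on the left and Ctrl-MI on the right (2 arrays each). Kcnj3, Kcnj5, Chrm2 and Rgs7bp lie higher and S1pr1, Ednrb, P2ry2 and Plcb4 lower on both TTg-MI arrays, without overlap.

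Partners of the R7 class included a further higher gene. Rgs7bp anchors complexes of Gnb5 and R7 proteins at the membrane, and it had 7.39 and 7.14 log2 units in TTg-MI, against 6.70 and 6.49 in Ctrl-MI (difference 0.67, SE 0.18, adjusted p = 0.546 in limma). Gpr158, a receptor-like protein that binds RGS7, had 8.14 and 6.97 in TTg-MI, against 6.88 and 6.01 in Ctrl-MI, a difference of 1.11 (SE 0.46) with a wide spread in both groups. Ric8b, the chaperone of Gs alpha subunits, had 10.77 and 11.08 in TTg-MI, against 10.23 and 10.66 in Ctrl-MI (difference 0.48, SE 0.22). The list of chaperones, exchange and anchoring factors, which also holds Gngt1 and Gngt2, had 16 measured genes. Of these, 5 were higher and 2 lower without overlap, against 19.4% and 18.7% of all probes. Their median log2 difference was 0.051.

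Plcb4, a phospholipase C beta enzyme and effector of Gq, had 10.11 and 10.05 log2 units in TTg-MI, against 10.68 and 10.41 in Ctrl-MI (difference -0.47, SE 0.17, adjusted p = 0.587 in limma). Plcb3 was also lower without overlap, at 7.06 and 6.79 in TTg-MI, against 7.17 and 7.24 in Ctrl-MI. Plcb1 was higher on both TTg-MI arrays, at 7.99 and 7.90, against 7.74 and 7.68 in Ctrl-MI, and Plcb2 overlapped, at 6.94 and 6.81 in TTg-MI and 7.19 and 6.75 in Ctrl-MI.

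Of 8 measured receptors that couple to Gq, 2 were higher and 4 lower without overlap, against 19.4% and 18.7% of all probes. Ednrb, an endothelin receptor, had 9.97 and 9.62 log2 units in TTg-MI, against 10.64 and 10.52 in Ctrl-MI (difference -0.79, SE 0.18). P2ry2, a nucleotide receptor, had 9.82 and 10.61 in TTg-MI, against 11.27 and 11.43 in Ctrl-MI (difference -1.13, SE 0.28). In the other direction, the prostaglandin receptor Ptgfr had 7.15 and 6.92 in TTg-MI, against 6.37 and 6.33 in Ctrl-MI (difference 0.69, SE 0.16). Each had an adjusted p of 0.546 in limma.

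Receptors coupled to Gs and the desensitizing kinases showed less. Of 5 measured Gs-coupled receptor genes, 1 separated the groups, against 38.1% of all probes. It was Glp1r, with 6.04 and 6.14 log2 units in TTg-MI, against 5.51 and 5.67 in Ctrl-MI (difference 0.50, SE 0.16). Ptger4 and Ptgir overlapped, with differences of -0.19 (SE 0.23) and -0.15 (SE 0.19). Of 6 measured receptor kinases and arrestins, Grk3 and Grk6 were higher and 0 lower without overlap, against 19.4% and 18.7% of all probes. Grk3 had 6.79 on both TTg-MI arrays, against 6.36 and 6.42 in Ctrl-MI (difference 0.40, SE 0.15), and Grk6 differed by 0.23 (SE 0.15). Grk5, a receptor kinase of heart muscle, overlapped with 10.04 and 9.44 in TTg-MI and 10.25 and 9.98 in Ctrl-MI (difference -0.37, SE 0.24).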

How the data were processed

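Total RNA from 4 whole hearts (100 ng each, RNA integrity number above 7) was read on Clariom S Mouse arrays, whose transcript clusters are called probes here. The authors made the values with Affymetrix Expression Console 1.4, a tool listed in the submitters' processing notes. They deposited values on a scale read here as log2 expression, a base that no label states and that rests on the values alone. The sources used here do not give the normalization, the summarization or the genome build. No filter was applied.

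Probes were named from the platform annotation: 19572 of 22206 probes carried a single symbol, 0 carried more, and 2634 have no name here. A further rule of 1 probe per symbol was not needed, since 0 members had more than 1 probe. TTg-MI was compared with Ctrl-MI in limma 3.58.1 (R 4.3.3; lmFit and eBayes, two-sided) on all probes, with Benjamini-Hochberg adjustment over all of them and a threshold of 0.05. The fit has 2 residual degrees of freedom, to which the variance model added 3.56. An exact two-sided permutation test of 2 arrays against 2 cannot give a p below 0.333. Arrays have no read depth, and having so few of them limits precision. The hearts are biological replicates per the design text.

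The members and lists were chosen with earlier results of these data known. A difference is given for members with an unadjusted p under 0.05, the member with the smallest p in each of 11 subfamilies, a fixed set known from heart or vessel wall, and up to 3 genes with the smallest p of each pathway list. The other members are given by their values. Summed marker signals are log2 of the sum of unlogged values. Background correction and slide as a block could not be varied with these values. Promoters were matched with Python 3.11.15 by Entrez identifier. Some genes of 1 pathway list, 2 of the 7 lower genes with an unadjusted p under 0.05 among them, are counted in the totals but not reported here.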

Additional observations from a re-analysis of the deposited data

How the results depend on the processing

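With 2 arrays a group, single arrays decide much. As each array was left out in turn, the probes past the adjusted threshold numbered 1 to 332, those with an unadjusted p under 0.05 862 to 3275, and the members past the adjusted threshold 0 to 1. Members with an unadjusted p under 0.05 numbered 0 to 2 higher and 1 to 8 lower, members without overlap 11 to 22 higher and 17 to 25 lower, and members at least 1.5-fold apart 0 to 2 higher and 1 to 5 lower. Without Ctrl-MI replicate 2 there were 332 probes past the adjusted threshold, 3275 with an unadjusted p under 0.05, and lower members numbering 8 by unadjusted p, 25 without overlap and 5 at least 1.5-fold apart. The counts without overlap exceed the 8 and 12 from all arrays by construction, since 3 arrays separate more readily than 4. These fits assume that a lone array varies like those of the other group. The Gnao1 difference stayed between -2.07 and -1.92, with adjusted p of 0.0309 to 0.845 in limma. Signs turned for Gnal (-0.12 to 0.21), Gnas (-0.081 to 0.076), Gnai2 (-0.099 to 0.26), Gnb1 (-0.59 to 0.13), Gng5 (-0.43 to 0.46), Rgs17 (-0.54 to 0.033), Rgs5 (-0.19 to 0.40), Rgs6 (-0.13 to 0.22), Rgs10 (-0.75 to 0.13), Ptger4 (-0.43 to 0.041) and Ptgir (-0.33 to 0.029). The other 31 of the 42 named genes kept their sign. Median centring turned Gnas to 0.011. An intensity trend with a robust prior gave 4 probes past the threshold and 1 higher member with an unadjusted p under 0.05, with Rgs4 and Gnb5 no longer among such members. No label says that the titles' numbers pair the hearts. Deviations of same-numbered arrays correlated at 0.16 over all probes, which from 2 pairs cannot show whether hearts were paired. With the replicate number as a block 7 probes passed, 0 of them members, and Gnao1 had an adjusted p of 0.0582 in limma. Quantile normalization and the filter on dim probes changed none of these counts by more than 1.5 times. Neither turned the sign of a named gene, but the filter removed Gnal, Rgs22 and Kcnj6 and kept 44 members. Subfamily medians did turn: that of the Gs genes from 0.022 to -0.044 with quantile normalization and -0.0022 with the filter. With the filter, that of the R4 class went from -0.13 to 0.10. Signal near the lower quartile limits Gnal, Gnat1, Gng3, Gng7, Rgs1 and Rgs18 and the 5 members under it on every array.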
